A study of Mus musculus with 6 samples.

Results

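The members described here are the nuclear genes for the subunits of oxidative phosphorylation. They were taken by gene symbol: names that begin with Nduf and a class letter and digit (complex I), Sdha to Sdhd (complex II), Uqcr and Cyc1 (complex III), Cox4 to Cox8 (complex IV) and Atp5 (complex V), without names ending in -ps. This gave 91 of the 38896 genes in the table, and all 91 were matched to a RefSeq gene, 89 of them protein coding. By complex there were 40 members in complex I, 4 in II, 9 in III, 21 in IV and 17 in V. Ndufa4 and Ndufa4l2 carry complex I names but were placed with complex IV, where the NDUFA4 protein is now counted. Cox7c-ps1 stayed in because its name ends in -ps1, and Ndufs5-ps was left out. RNA was sequenced from fibroblasts of the distal colon of mice aged 6 weeks, grown for 2 passages and then kept for 24 h in either control or inflammatory conditioned medium. Each of 3 mice (1716, 1717 and 1718) gave 1 control library, labelled Ctrl, and 1 library labelled DSS, which was taken as the inflammatory medium. The letters DSS usually stand for dextran sulfate sodium, given to mice to cause colitis. The labels enter control and DSS under genotype, and strain, sex and how the medium was made are not analysed here. Both groups of a mouse come from the same animal, and all are cultured cells, without the epithelium, blood supply and oxygen gradient of the colon.

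Oxidative phosphorylation takes electrons from NADH (complex I) and succinate (complex II) through ubiquinone, complex III and cytochrome c to oxygen at complex IV. Complexes I, III and IV pump protons across the inner mitochondrial membrane, and ATP synthase, complex V, lets them back to make ATP. Most subunits are encoded in the nucleus, a few in mitochondrial DNA, and the mitochondrial genes are not analysed here. Several complex IV subunits have alternative isoforms known from muscle, lung, testis or cells low in oxygen.

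The libraries held 17293680 to 19482938 estimated counts, and the members took 0.310 to 0.316% of them in control and 0.285 to 0.307% in DSS. Fibroblast markers were abundant, with Col1a1, a chain of type I collagen, at 17959 ± 1955 CPM (counts scaled to library size, mean ± SD, n = 3) in control and 8605 ± 1176 in DSS. Of the 9 fibroblast markers 5 fell and 1 rose. The cultures also held macrophage RNA, as the 9 macrophage markers summed to 1546 to 2262 CPM in control and 970 to 1481 in DSS, with 5 lower and 1 higher. The 6 smooth muscle markers summed to 1597 to 1626 CPM in control and 1174 to 1363 in DSS, with 2 lower and 1 higher. The 8 epithelial markers summed to 9.80 to 14.0 and 3.47 to 5.56 CPM, mostly Muc2 in control, which fell. The 5 endothelial and 5 glial and neural markers tested gave no call by edgeR without the block. At an unadjusted p under 0.05, 1 endothelial marker was higher and 3 were lower, and no glial or neural marker passed. DESeq2 and limma-voom also called none of either list, and DESeq2 with the mouse as a block called 2 glial or neural markers lower. With that block edgeR called 2 endothelial and 3 glial or neural markers lower. The part that the other cell types have in the values below was not tested, and in RNA from whole cultures fewer cells of a type and less RNA per cell cannot be told apart.

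Few respiratory subunits passed the threshold. In the inflammatory medium 4 members fell and none rose without the mouse as a block: Ndufa4l2 and Cox4i2, alternative isoforms of complex IV, Ndufv3 of complex I and Uqcrq of complex III. Of the 91 members 84 had enough counts to be tested, by edgeR's quasi-likelihood test with Benjamini-Hochberg adjustment over 19869 genes at 0.05. The 4 called were 4.76% of the 84, against 13.3% of all genes tested (7.37% higher and 5.91% lower) and 19.0% of the 10211 genes averaging 10 CPM or more. All 4 were lower, so for lower calls alone the 4.76% stands beside 5.91% of all genes. The gap to 13.3% lies mostly in the higher calls, of which the members had none. At an unadjusted p under 0.05, 2 of the 84 members were higher and 18 lower, against 14.7% and 13.8% of all genes. With the mouse as a block edgeR called 12 of the 84 lower and 1 higher, against 12.7% and 12.3% of all genes (25% in either direction). Without the control library of mouse 1717 or 1718, or without both libraries of either mouse, 1 member was called lower. By DESeq2 0 members were higher and 5 lower, with 13.7% of all genes called. By limma-voom 0 were higher and 3 lower, with 12.7% of all genes called.

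The estimates of the members lay slightly below 0. Their median log2 fold change, DSS against control, was -0.07, against 0.01 over all genes tested, and 60 of the 84 estimates (71.4%) were below 0, against 48.6% of all genes. The 3 DSS libraries did not overlap the 3 control libraries for 30 members, 26 with DSS lower and 4 with DSS higher, where 34.2% of all genes did not overlap (16.5% lower and 17.7% higher). The precision was high: the median SE was 0.09 on the log2 scale, against 0.15 over all genes. The 95% interval of the change lay wholly within 1.5-fold for 73 of the 84 members (86.9%), against 49.3% of all genes. The members were also more abundant, with a median of 26.2 CPM against 10.8, and these intervals were not compared at matched level. Summed over all members, the level was 3116, 3147 and 3204 CPM in the control libraries of mice 1716, 1717 and 1718, and 2810, 3029 and 3018 CPM in their DSS libraries. Every DSS sum was below every control sum, and the lowest was that of mouse 1716.

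**Figure D1:**
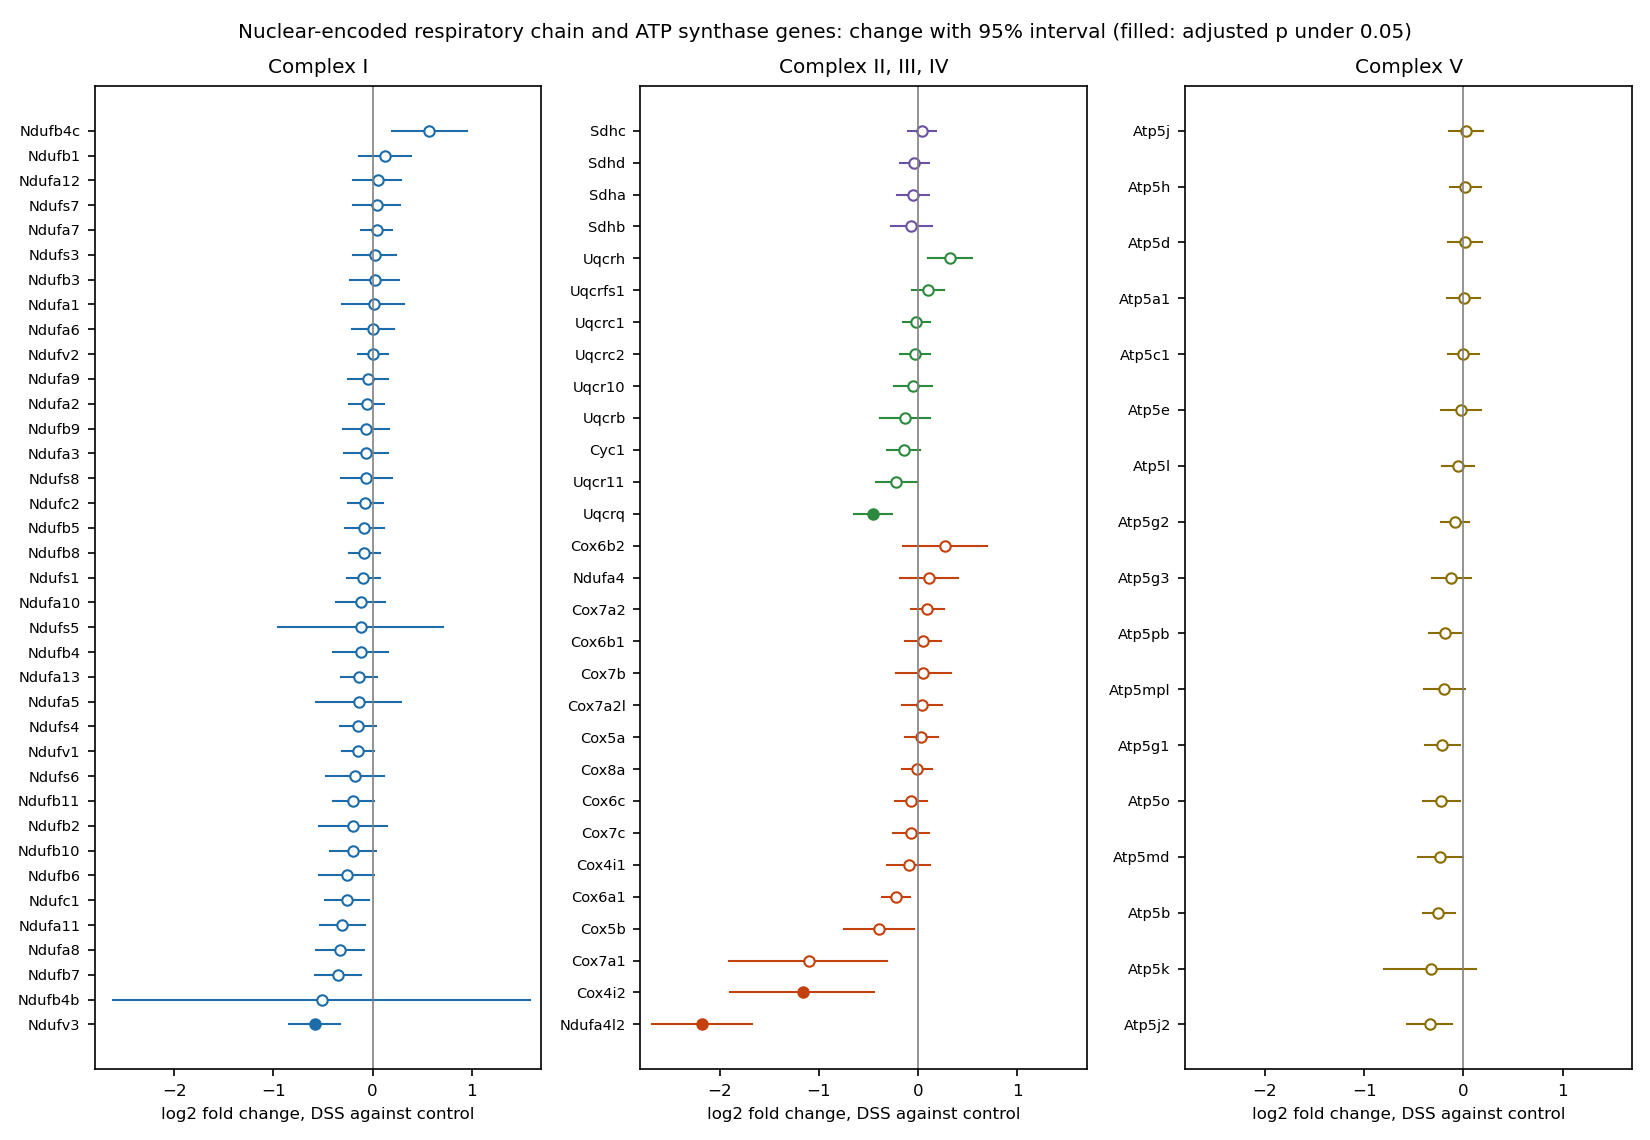
Log2 fold change of DSS against control for 83 of the 84 tested members, by complex, with its 95% interval (3 libraries a group). Filled points are the 4 members with an adjusted p under 0.05 by edgeR without the mouse as a block, all lower in DSS. Most of the other intervals lie within 1.5-fold of no change.

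The sharpest change was in Ndufa4l2, a paralogue of the complex IV subunit gene Ndufa4 that is known to be induced by low oxygen (chromosome 10, 127509274 to 127517154, GRCm38). It read 31.7, 49.0 and 35.7 CPM in the control libraries of mice 1716, 1717 and 1718 and 9.47, 9.88 and 6.37 CPM in DSS. The groups did not overlap, and the control library of mouse 1717 was the highest of all. The mean went from 38.8 ± 9.08 to 8.57 ± 1.92 CPM (SD, n = 3), a log2 fold change of -2.18 ± 0.22 (SE; 95% interval -2.68 to -1.67; adjusted p = 0.00168), or 4.52-fold lower. It was called in each of 18 alternative fits, with adjusted p up to 0.026. The gene overlaps Shmt2, on the opposite strand, over a short stretch at their ends (kallisto's strand setting is unknown here).

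Cox4i2, the alternative isoform of the subunit that Cox4i1 normally supplies and known from lung and oxygen-sensing cells, was scarce and fell too (chromosome 2, 152753916 to 152765039). Its estimated counts were 30, 47 and 27 for control and 19, 13 and 12 for DSS, which is 1.52, 2.58 and 1.55 against 1.08, 0.738 and 0.683 CPM. The groups did not overlap, with the control library of mouse 1717 the highest. The log2 fold change was -1.16 ± 0.31 (95% interval -1.89 to -0.44; adjusted p = 0.0484), or 2.24-fold lower. This call held in 6 of 18 alternative fits and was lost in all 9 fits on fewer libraries (1 library or 1 mouse left out), with adjusted p between 0.0511 and 0.277. It was also lost with no filter on low counts (0.0549), by limma-voom (0.0584) and by DESeq2 with the mouse as a block (0.120). The gene's 727-base transcript went from 1.69 ± 0.590 to 0.352 ± 0.452 CPM. Its other listed transcript went the other way, from 0.188 ± 0.172 to 0.483 ± 0.258 CPM. Neither transcript was tested alone. The gene overlaps Bcl2l1 on the opposite strand.

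The rest of the alternative isoforms were near the floor of the data or did not pass. Cox7a1, the heart and muscle isoform whose common partner is Cox7a2, read 1.01, 1.37 and 1.32 CPM in control and 0.856, 0.511 and 0.341 in DSS. Its groups did not overlap, but with a log2 fold change of -1.10 ± 0.34 it missed the threshold (adjusted p = 0.0760) and was called in 2 of 18 alternative fits. Cox6a2, the muscle partner of Cox6a1, was not tested: its estimated counts were 6, 11 and 11 for control and 0, 0 and 2 for DSS. Cox8b, another muscle isoform, had 5, 6 and 7 against 4, 3 and 3 counts and was not tested either. Cox6b2, known from testis, read 6.18, 5.48 and 4.30 CPM in control and 6.39, 7.55 and 5.41 in DSS, with overlapping groups (log2 fold change 0.27 ± 0.18; adjusted p = 0.379). Cox7b2 had 0, 0 and 0 counts in control and 1, 2 and 0 in DSS, and Cox8c was listed at 0 in every library. Summed, these 8 genes gave 41.0, 59.4 and 43.9 CPM in control and 18.1, 19.0 and 13.1 in DSS. Ndufa4l2 was most of the sum in control.

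**Figure D2:**
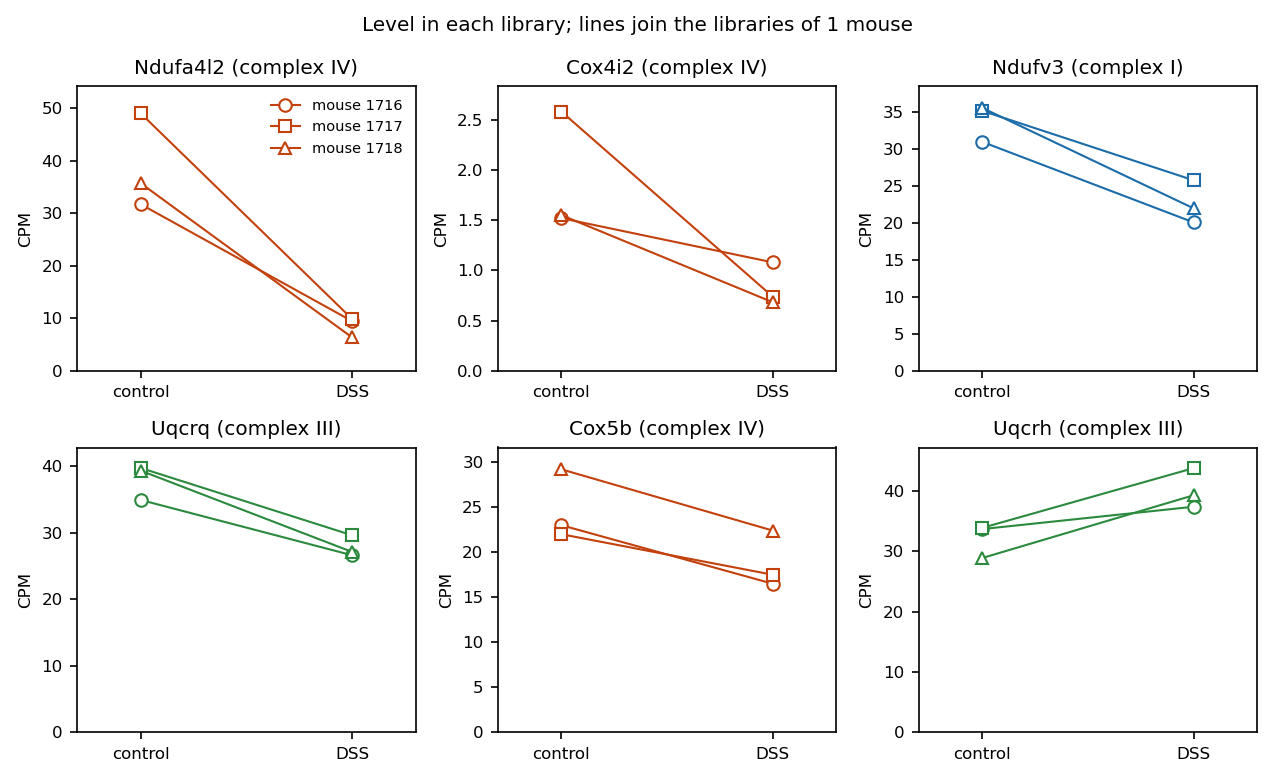
CPM of 6 members in each library, with lines joining the 2 libraries of each animal. Ndufa4l2, Cox4i2, Ndufv3, Uqcrq and Cox5b were lower in DSS in all 3 mice and Uqcrh was higher in all 3, but Cox5b overlaps between the groups.

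Set against their common partners, the isoforms differed in scale. Per length of transcript (CPM per kilobase, with 610 bases for Ndufa4 and 934 for Ndufa4l2), Ndufa4l2 stood at 34.0, 52.5 and 38.2 in control beside 39.3, 40.1 and 41.3 for Ndufa4. In DSS it stood at 10.1, 10.6 and 6.82 beside 35.4, 45.9 and 49.2. Ndufa4l2 thus made up 46.4, 56.7 and 48.0% of the pair in control and 22.3, 18.7 and 12.2% in DSS. Ndufa4 itself read 24.0, 24.4 and 25.2 CPM in control and 21.6, 28.0 and 30.0 in DSS, with overlapping groups and a log2 fold change of 0.11 ± 0.12 (adjusted p = 0.614). Cox4i2 made up 2.09, 3.09 and 1.81% of its pair with Cox4i1 in control and 1.60, 0.955 and 0.867% in DSS. Cox7a1 made up 4.92, 6.59 and 6.95% of its pair with Cox7a2 in control and 4.12, 2.46 and 1.65% in DSS. The DSS shares lay below the control shares in all 3 pairs, without overlap. Short transcripts yield fewer fragments than their full length implies, so the size of a share depends on the lengths used. With a fixed length per gene, its order between libraries does not. For Cox4i2 the 727-base length was used for all of the gene's counts. That transcript read 1.52 CPM in the control library of mouse 1716 and 0 in the DSS library of mouse 1717. The order of the Cox4i2 shares can therefore depend on the length of its other transcript.

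**Figure D3:**
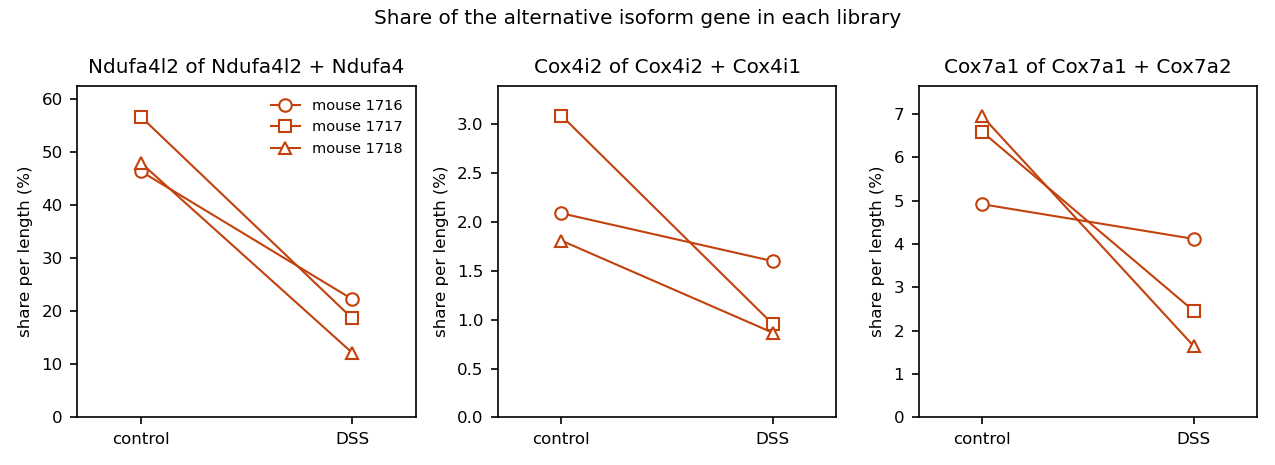
Share of the alternative isoform gene in its pair, in percent, from CPM per length of transcript, in each library, with lines joining the libraries of 1 mouse. All 3 shares were lower in DSS in each mouse, Ndufa4l2 from 46.4 to 56.7% in control to 12.2 to 22.3% in DSS.

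Smooth muscle and mural cells are known to express Ndufa4l2 and Cox4i2, and their genes are given beside these isoforms. Of 8 mural cell genes, a list chosen after values had been seen, 6 were tested and 1 fell, Notch3 (63.4 ± 5.34 to 42.7 ± 7.09 CPM; adjusted p = 0.0247, and lost in 7 of the 9 fits on fewer libraries, with adjusted p up to 0.174). Blocked by mouse, 4 of the 6 were lower. The list summed to 365 to 555 CPM in control and 202 to 322 in DSS. Vtn and Higd1b, 2 of the genes that mark pericytes, were near 0, at 0.0543 ± 0.00336 and 0.389 ± 0.196 CPM in control. The 6 tested genes of the list averaged 1.38 to 143 CPM over the libraries, with a median of 43.2. Of their log2 fold changes 5 were below 0, with a median of -0.44 and a range of -1.45 to 0.12. The smooth muscle genes Actg2 and Cnn1 fell and Myh11 rose (392 ± 34.0 to 529 ± 48.4 CPM). Of the 6 smooth muscle markers 5 had log2 fold changes below 0, with a median of -0.68 and a range of -0.93 to 0.43. Blocked by mouse, edgeR called 4 of them lower and 1 higher. Of 18 oxygen response genes tested, also chosen after values had been seen, 7 fell and 1 rose, or 44.4% against 13.3% of all genes. A list picked that way cannot test this share. Egln1, the prolyl hydroxylase that marks HIF proteins for destruction, went from 146 ± 22.7 to 67.1 ± 3.34 CPM (log2 fold change -1.12 ± 0.12; adjusted p = 0.00197). Hif1a had a log2 fold change of -0.05 ± 0.11 (adjusted p = 0.808). The striated muscle genes Ckm, Myh7 and Myh4 were at 0 or at most 0.0573 CPM. The part of these genes and cells in the levels of Ndufa4l2 and Cox4i2 was not tested.

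The common subunits of complex IV, 12 with Ndufa4, gave no call by edgeR without the block, and their median log2 fold change was 0.01. At an unadjusted p under 0.05, 2 of them were lower and none higher. DESeq2 and limma-voom called none, and DESeq2 with the mouse as a block called 1 lower. With that block edgeR called 2 of the 12 lower. Cox4i1 read 73.1, 82.9 and 85.8 CPM in control and 68.2, 78.4 and 80.0 in DSS, a log2 fold change of -0.09 ± 0.09. Cox6b1 (0.05 ± 0.08), Cox7a2 (0.09 ± 0.07), Cox7b (0.05 ± 0.12) and Cox8a (-0.01 ± 0.06) had log2 fold changes near 0. Cox7a2l, which helps complexes III and IV associate, had 0.04 ± 0.09. The lowest estimates were those of Cox5b, a peripheral zinc-binding subunit, and Cox6a1. Cox5b read 23.0, 22.0 and 29.2 CPM in control and 16.5, 17.5 and 22.4 in DSS, lower in each mouse although the groups overlapped. Its log2 fold change of -0.39 ± 0.15 missed the threshold (adjusted p = 0.138), while the fit blocked by mouse called it (-0.40; adjusted p = 0.00627). Cox6a1 read 47.5, 47.1 and 46.3 CPM in control and 39.1, 41.2 and 40.4 in DSS, without overlap (-0.22 ± 0.06; adjusted p = 0.0515, and 0.0288 with the block).

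In complex I, 1 member of 38 tested fell without the mouse as a block, and edgeR with the block called 4 lower. The 1 was Ndufv3, a small accessory subunit beside the NADH-binding end of the enzyme (chromosome 17, 31520115 to 31531326). It read 31.0, 35.2 and 35.6 CPM in control and 20.1, 25.8 and 22.0 in DSS. The groups did not overlap and each mouse was lower in DSS. The mean went from 33.9 ± 2.54 to 22.7 ± 2.90 CPM, a log2 fold change of -0.58 ± 0.11 (95% interval -0.84 to -0.33; adjusted p = 0.0139), or 1.5-fold lower. The call held in 14 of 18 alternative fits and was lost without the control library of mouse 1717 (adjusted p = 0.0593) or 1718 (0.0530), and without both libraries of mouse 1717 (0.0610) or 1718 (0.129). Ndufv3 has a short and a long isoform, the long one with an extra exon. The 493-base transcript went from 20.3 ± 0.918 to 13.3 ± 1.27 CPM and the 1582-base transcript from 13.6 ± 1.82 to 9.39 ± 1.63 CPM. The longer one took 37.5, 39.7 and 42.7% of the gene's counts in control and 39.5, 43.3 and 41.1% in DSS, so the shares overlapped.

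The 7 core subunits of complex I, which carry the flavin and the iron-sulfur clusters or line the path to ubiquinone, showed no call by edgeR, and none passed at an unadjusted p under 0.05 or by DESeq2 or limma-voom. Their median log2 fold change was -0.00. Ndufs1, the largest of them, read 42.8, 42.1 and 44.7 CPM in control and 39.1, 38.9 and 43.1 in DSS, with overlapping groups (-0.10 ± 0.07). Ndufv1, which binds NADH, read 39.3, 40.3 and 40.9 against 34.0, 37.1 and 37.7 CPM, without overlap (-0.15 ± 0.07; adjusted p = 0.209). The 95% intervals of all 7 lay within 1.5-fold.

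The 29 accessory subunits of complex I had a median log2 fold change of -0.12, and 24 estimates were below 0. Without overlap between the groups, 11 of them were lower in DSS and none was higher, where 16.5% and 17.7% of all genes were so. Those closest to the threshold were Ndufb7 (11.1, 10.8 and 11.3 CPM in control; 8.27, 8.46 and 9.39 in DSS), Ndufa8 and Ndufa11. Ndufa8, on the intermembrane-space side of the enzyme, read 21.3, 25 and 25.9 CPM in control and 17.7, 20.4 and 19.5 in DSS, without overlap (-0.33 ± 0.10; adjusted p = 0.0804). Ndufa11, in the membrane arm, read 16.4, 15 and 18.1 CPM against 13.5, 12.9 and 13.5 (-0.31 ± 0.10; adjusted p = 0.0826). With the mouse as a block, Ndufa8 (adjusted p = 0.0147), Ndufb7 (0.0336) and Ndufa11 (0.0355) passed.

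Some complex I members share sequence with copies, which the estimated counts divide between them. Ndufs5, an accessory subunit, held 174.2, 305.6 and 134.5 estimated counts (control) against 149.9, 258.4 and 128.5 (DSS). Its pseudogene Ndufs5-ps had 171.8, 12.4 and 178.5 and 134.1, 25.6 and 119.5. Ndufs5 therefore held 96.1 and 91.0% of the shared counts in mouse 1717 and 43.0 to 52.8% in the other mice. Its level followed the mouse, and its interval was wide (log2 fold change -0.12 ± 0.36). Summed with the pseudogene it had 346.0, 318.0 and 313.0 counts in control and 284.0, 284.0 and 248.0 in DSS, without overlap in raw counts, and a log2 fold change of -0.19 ± 0.09 (adjusted p = 0.211). Ndufb4c, a copy of Ndufb4 identical to it over 390 bases, read 2.08, 2.69 and 2.58 CPM in control and 3.88, 3.69 and 3.30 in DSS. It had the highest estimate of any member (0.57 ± 0.16; adjusted p = 0.0607), and its counts cannot be told apart from those of Ndufb4 over that stretch. Ndufb4b varied from 0 to 1.26 CPM. Ndufb4 with its copies had a log2 fold change of -0.01 ± 0.09.

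Complex II, succinate dehydrogenase, which also serves the citric acid cycle, gave no call in its 4 subunits. Sdha, the flavoprotein, read 112, 98.6 and 105 CPM in control and 102, 101 and 101 in DSS. Sdhb, the iron-sulfur subunit, read 33.0, 33.7 and 38.1 against 30.8, 34.5 and 34.7 CPM. The membrane anchor Sdhc read 48.4, 49.2 and 48.0 against 48.4, 51.6 and 49.6 CPM, and its partner Sdhd 37.9, 38.5 and 37.5 against 37.8, 36.4 and 36.8 CPM. The groups overlapped for all 4. The 95% intervals of the log2 fold change were -0.21 to 0.11 for Sdha, -0.27 to 0.14 for Sdhb, -0.10 to 0.18 for Sdhc and -0.18 to 0.11 for Sdhd. None passed at an unadjusted p under 0.05 or was called by edgeR, DESeq2 or limma-voom.

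In complex III 1 of 9 members passed without the mouse as a block. Uqcrq, a small subunit that helps hold cytochrome b, fell (chromosome 11, 53427922 to 53430831). It read 34.9, 39.7 and 39.3 CPM in control and 26.6, 29.6 and 27.1 in DSS, without overlap. The mean went from 38.0 ± 2.67 to 27.8 ± 1.62 CPM, a log2 fold change of -0.45 ± 0.08 (95% interval -0.64 to -0.26; adjusted p = 0.0126), or 1.37-fold lower. The call held in 14 of 18 alternative fits and was lost without the control library of mouse 1717 (adjusted p = 0.0576) or 1718 (0.0511), and without both libraries of mouse 1717 (0.0981) or 1718 (0.120). Uqcrh, the hinge protein that helps cytochrome c dock, leaned the other way, with 33.7, 33.9 and 28.9 CPM in control and 37.4, 43.8 and 39.3 in DSS. Its groups did not overlap, and the log2 fold change of 0.32 ± 0.09 missed the threshold (adjusted p = 0.0671). It passed by edgeR with the mouse as a block (0.0186) and not by DESeq2 with the same block (0.0941).

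The 4 redox and core subunits of complex III had 95% intervals within 1.5-fold. Uqcrc1 read 72.0, 73.4 and 70.9 CPM in control and 70.0, 72.7 and 71.3 in DSS, and Uqcrc2 61.1, 63.6 and 62.0 against 58.9, 63.9 and 60.1 CPM, with overlapping groups. Cyc1, cytochrome c1, read 32.8, 32.2 and 35.1 against 30.6, 31.2 and 28.7 CPM, and Uqcrfs1, the Rieske iron-sulfur protein, 28.9, 28.1 and 29.3 against 30.9, 32.2 and 29.6 CPM. Neither Cyc1 (adjusted p = 0.238) nor Uqcrfs1 (0.377) passed, although their groups did not overlap. Cycs, the cytochrome c that carries electrons from complex III to IV and no member, had a log2 fold change of -0.16 ± 0.07 (adjusted p = 0.180).

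ATP synthase gave no call by edgeR without the block in its 17 members. At an unadjusted p under 0.05, 6 were lower and none higher, DESeq2 called 1 lower and limma-voom none. With the mouse as a block edgeR called 3 lower. Atp5a1, its alpha subunit, read 245, 252 and 254 CPM in control and 233, 257 and 264 in DSS, with overlapping groups (log2 fold change 0.01 ± 0.07). Atp5b, the catalytic beta subunit, read 377, 388 and 403 against 309, 336 and 339 CPM, without overlap (-0.25 ± 0.07). Atp5b had an adjusted p of 0.0596 by edgeR, 0.0463 by DESeq2 and 0.0169 with the mouse as a block. The central-stalk members of that group, Atp5c1 (0.00 ± 0.07), Atp5d (0.02 ± 0.07) and Atp5e (-0.02 ± 0.09), had log2 fold changes near 0.

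The rotating ring is made of subunit c, an identical protein that 3 genes supply. Atp5g1 read 21.6, 23.3 and 24.0 CPM in control and 19.4, 20.1 and 20 in DSS, without overlap (-0.21 ± 0.08; adjusted p = 0.115). Atp5g2 (-0.08 ± 0.06) and Atp5g3 (-0.12 ± 0.08) overlapped between the groups. The 9 peripheral stalk and membrane members had the lowest median of the complex, -0.19. Atp5j2, subunit f of the membrane part, read 19.9, 17.5 and 16.9 CPM against 13.5, 14.0 and 15.3, without overlap (-0.34 ± 0.10; adjusted p = 0.0632, and 0.0412 with the block). Atp5o, which ties the stalk to the head, read 43.8, 43.0 and 49.1 against 36.4, 40.5 and 39.7 CPM (-0.22 ± 0.08; adjusted p = 0.118, and 0.0494 with the block). Atp5j, a stalk subunit, had the highest estimate, 0.03 ± 0.07.

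With the mouse as a block, which the pairing by animal allows, 12 members were called lower and 1 higher, 15.5% of the 84, against 25% of all genes (12.3% higher and 12.7% lower). The 9 members that edgeR called with the block and not without it were Cox5b, Ndufa8, Atp5b, Uqcrh, Cox6a1, Ndufb7, Ndufa11, Atp5j2 and Atp5o, with log2 fold changes between -0.40 and 0.32. DESeq2 with the same block called 5 members lower and 0 higher, with 16.6% of all genes called. Within mice, the median member differed by -0.12 on the log2 scale in mouse 1716, -0.02 in mouse 1717 and -0.05 in mouse 1718, where all genes had 0.01, -0.00 and -0.00. The sign was the same in all 3 mice for 43 of the 84 members, and for 11313 of all 19869 genes tested. The downward lean was widest in mouse 1716, where complex I had a median of -0.17 and complex V of -0.15. Without both libraries of mouse 1716 the median fold change of the members was -0.048 on the log2 scale, with -0.06 for complex I and -0.08 for complex V. Without mouse 1717 these were -0.10, -0.14 and -0.15. The medians of complexes over the libraries were -0.09 for I, -0.04 for II, -0.05 for III, -0.04 for IV and -0.12 for V.

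**Figure D4:**
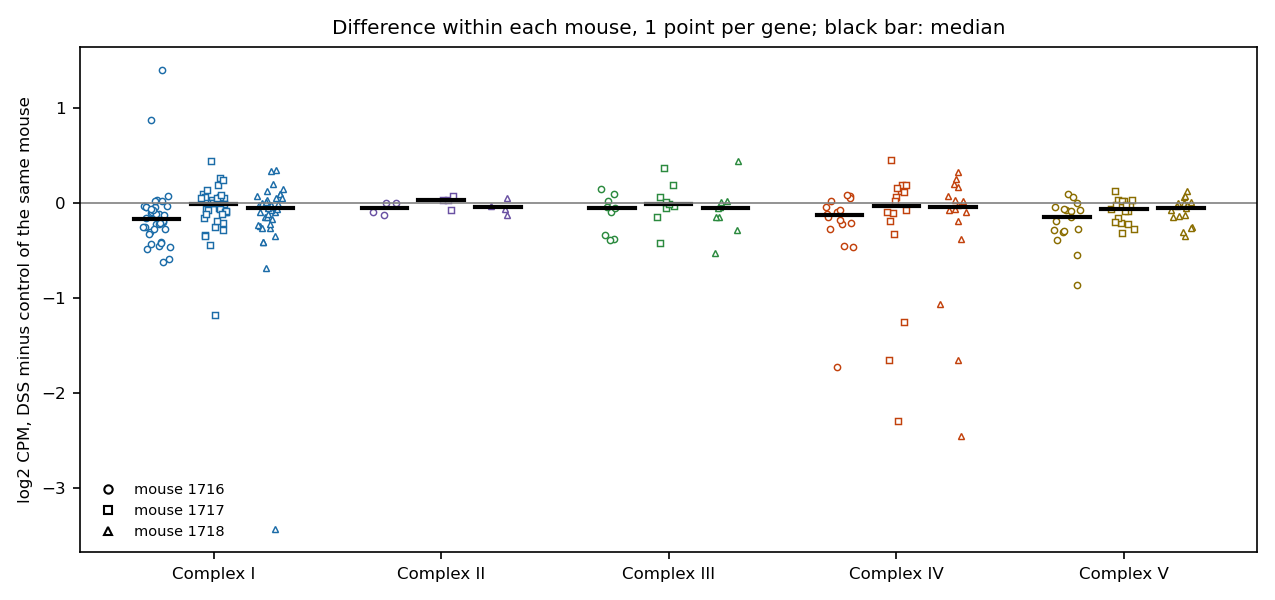
Difference in log2 CPM, DSS minus control of the same mouse, with 1 point per tested member, by complex and mouse, and a black bar at the median. The bars lie between -0.17 and 0.03, and the far low points are the alternative isoforms of complex IV and the low-count copy Ndufb4b.

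The promoters of these genes are of interest because nuclear respiratory factor 1 (NRF1) and ETS-family factors are known to bind near many of their start sites. RefSeq windows (GRCm38.p6) of 250 bases before to 50 after the start were matched for 71 of the 91 members, in 76 windows. Ndufa4l2, Cox4i2 and Uqcrq had no window, so Ndufv3 is the only called member that was searched. The NRF1 motif (GCGC, any base, TGCGC) was in 23.7% of these windows and in 4.60% of all 32851, both strands searched. The ETS motif CCGGAA was in 35.5% against 14.9%, the oxygen-response cores ACGTG in 25% against 19.6% and GCGTG in 52.6% against 32.4%, and TATAAA in 11.8% against 13.6%. A match is a run of letters and no proof of binding. The windows were not matched for base composition, so these shares do not tell a motif from a general richness in G and C. The 250 bases upstream of 4 members are shown, 5′ to 3′ on the gene's strand, with matches to the first 4 motifs on either strand in capitals. Ndufv3 fell (chr17:31519865-31520114, plus strand). Cox7a1 is the isoform nearest to a call (chr7:30183921-30184170, plus strand). Uqcrh leaned upward (chr4:116075071-116075320, minus strand). Ndufa8 carries the NRF1 motif (chr2:36049339-36049588, minus strand).
Ndufv3: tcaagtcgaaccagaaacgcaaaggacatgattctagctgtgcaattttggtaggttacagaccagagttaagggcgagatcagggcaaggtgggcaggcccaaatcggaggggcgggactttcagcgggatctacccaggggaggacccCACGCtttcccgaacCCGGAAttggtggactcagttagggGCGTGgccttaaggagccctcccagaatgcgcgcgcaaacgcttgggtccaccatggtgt
Cox7a1: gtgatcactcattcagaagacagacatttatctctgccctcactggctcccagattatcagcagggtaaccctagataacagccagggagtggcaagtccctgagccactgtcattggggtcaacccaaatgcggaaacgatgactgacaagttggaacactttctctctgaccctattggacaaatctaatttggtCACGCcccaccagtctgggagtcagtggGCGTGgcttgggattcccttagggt
Uqcrh: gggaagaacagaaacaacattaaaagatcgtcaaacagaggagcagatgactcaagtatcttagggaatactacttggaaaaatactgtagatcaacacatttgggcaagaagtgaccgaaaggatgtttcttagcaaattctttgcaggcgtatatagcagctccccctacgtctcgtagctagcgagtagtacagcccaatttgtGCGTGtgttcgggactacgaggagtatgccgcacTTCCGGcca
Ndufa8: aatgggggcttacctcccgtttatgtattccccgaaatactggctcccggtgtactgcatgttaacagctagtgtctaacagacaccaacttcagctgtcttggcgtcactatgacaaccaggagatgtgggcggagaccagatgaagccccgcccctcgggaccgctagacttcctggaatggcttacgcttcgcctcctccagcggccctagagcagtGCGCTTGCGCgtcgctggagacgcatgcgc
In the Ndufv3 run the capitals mark 1 ETS match and GCGTG on both strands. In Cox7a1 they mark GCGTG on both strands, in Uqcrh GCGTG and an ETS match near the start, and in Ndufa8 a single NRF1 match. The runs of Cox5b and Atp5b were searched too and are not shown. Cox5b held a GCGTG match and Atp5b held none of these motifs.

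Around the subunits, other genes of mitochondrial energy metabolism were also mostly steady. Of 165 genes tested in 13 lists (assembly, coenzyme Q, citric acid cycle, carriers, import and the like), of which 1 is a member (Cox7a2l), 6 rose and 8 fell, or 8.48% against the 13.3% of all genes. Their median log2 fold change was -0.01. Blocked by mouse, 9 were higher and 16 lower, or 15.2% against 25% of all genes. None of the 18 complex I, 4 complex II and 6 complex III assembly factors was called by edgeR without the block, DESeq2 or limma-voom. With the mouse as a block edgeR called 1 of them lower, the complex III factor Uqcc2 (adjusted p = 0.0210). At an unadjusted p under 0.05, 1 of these was higher and 1 lower for complex I, none for complex II and 1 lower for complex III. Of 23 complex IV assembly factors 1 fell: Higd1a, which associates with complex IV and is known to be induced by low oxygen, went from 30.1 ± 6.19 to 13.0 ± 0.844 CPM (-1.21 ± 0.15; adjusted p = 0.00334). Tmem70, which assembles ATP synthase, went from 44.2 ± 2.50 to 33.0 ± 0.972 CPM (-0.42 ± 0.07; adjusted p = 0.00926), 1 of 6 in its list. In the coenzyme Q list of 14, Pdss2 and Coq10a rose and Coq8b and Coq10b fell. EdgeR with the block also called Coq3 of this list higher (adjusted p = 0.0211). In the ATP synthase list it also called Fmc1 lower (-0.88; adjusted p = 0.0217).

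The entry of pyruvate held a rise and a fall. Pdk4, a kinase that switches pyruvate dehydrogenase off, rose from 9.15 ± 2.70 to 51.8 ± 1.43 CPM (log2 fold change 2.50 ± 0.18; adjusted p = 0.000719). Pdk1, a second kinase of the same enzyme and a known oxygen-response gene, fell from 112 ± 18.7 to 49.3 ± 5.45 CPM (-1.18 ± 0.14; adjusted p = 0.00269). In the list of 20 for pyruvate dehydrogenase and the citric acid cycle 1 fell, Idh3a (-0.40 ± 0.09; adjusted p = 0.0217). Of 17 regulators of mitochondrial biogenesis 1 fell, the coactivator Pprc1 (-0.47 ± 0.09; adjusted p = 0.0150), while Ppargc1a (0.38 ± 0.13; adjusted p = 0.106) and Nrf1 (-0.18 ± 0.07; adjusted p = 0.134) did not pass. Among 13 carriers and porins the ADP/ATP carrier Slc25a5 rose (0.64 ± 0.13; adjusted p = 0.0203) and the porin Vdac1 fell (-0.36 ± 0.08; adjusted p = 0.0295). Blocked by mouse, edgeR called 1 of the 13 higher and 2 lower. Of 9 oxidant-defence genes Sod2, the mitochondrial superoxide dismutase, rose from 168 ± 11.1 to 330 ± 81.9 CPM (0.97 ± 0.17; adjusted p = 0.0108), and so did Prdx5 (0.52 ± 0.10; adjusted p = 0.0135). In this list 3 were higher and 2 lower at an unadjusted p under 0.05, and the same numbers were called by edgeR with the block. DESeq2 with that block called 2 higher and 1 lower. Of the 22 genes of protein import and the 7 of cristae none was called by edgeR without the block, DESeq2 or limma-voom, with 2 higher and 1 lower, respectively, at an unadjusted p under 0.05. With the mouse as a block edgeR called 1 lower in each, Tomm40 (adjusted p = 0.0199) and Immt (0.0213). Pdk4 was called in each of the 18 alternative fits. Higd1a and Pdk1 were lost in 1 fit each, the one without mouse 1717 (adjusted p = 0.0525 and 0.0522). Tmem70, Coq8b, Coq10b and Prdx5 were lost without mouse 1717 (adjusted p = 0.131, 0.124, 0.123 and 0.120) and without mouse 1718 (0.0523, 0.0833, 0.0862 and 0.111). Sod2 was lost without either of these mice (0.131 and 0.0635) and without the control library of mouse 1717 (0.0539). Pprc1, Slc25a5, Idh3a and Vdac1 were lost in 4, 5, 7 and 7 of the 9 fits on fewer libraries, with adjusted p up to 0.203. Pdss2 and Coq10a were lost in all 9 and in 5 other fits each, with adjusted p up to 0.257.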

How the data were processed

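Directional libraries were made from total RNA after ribosomal depletion, per the labels' protocols. The authors deposited estimated counts per transcript, unscaled, made with kallisto and the builds GRCm38 and mm10, per the submitters' processing notes. Its version, strand setting and any filter are unknown here. Of the values above 0, 84.5 to 84.8% were not whole, at a tolerance of 1e-06. Near-identical transcripts share reads by likelihood.

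Counts of 120299 transcripts were summed over each of 38896 genes and rounded. Genes passing filterByExpr (minimum count 10, total 15) were scaled by TMM and compared by edgeR 4.0.16 (quasi-likelihood test, group as the term, Benjamini-Hochberg over 19869 genes, threshold 0.05) in R 4.3.3. The SE is the log2 fold change over the square root of F. CPM values use TMM factors, and log2 CPM within mice a prior count of 2. DESeq2 1.42.0 and limma 3.58.1 were alternatives, as were other scalings, no filter, no ribosomal RNA, the mouse as a block, and leaving out libraries or mice. After the data had been seen, summing copies with their gene and counting Ndufa4 and Ndufa4l2 with complex I were added. The fit was tested on simulated data. Figures used matplotlib 3.10.9, and other steps Python 3.11.15, pandas 2.3.3, numpy 2.4.6 and scipy 1.17.1.

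The libraries pair by animal. Deviations from group means correlated within mice with r = 0.352, 0.212 and 0.463 across genes, which are not independent, and between mice with -0.36 to 0.0222. The deviations of a group sum to 0 for each gene, so the between-mouse values are no separate contrast to the within-mouse ones. Libraries of a group differed by more than counting noise (chi-square per degree of freedom 9.71 to 22.2).

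Members and lists were chosen with earlier results of these data known. Named members were those called, all of complex II, the isoform sets, the extremes of each complex, and up to 3 per direction called by edgeR with the block only. Other members given with values were chosen after their values were seen. The values of 1 tested member are not reported here, though it is included in the counts and medians. RefSeq names and spans come from a GRCm38.p6 table, and transcript lengths from GENCODE M21.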

Additional observations from a re-analysis of the deposited data

How the results depend on the processing

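Ndufa4l2 fell in each of the 18 alternatives run. With the replicate block (mouse pairing) by edgeR, members called lower went from 4 to 12 and members called higher from 0 to 1, and genes of the other mitochondrial lists called lower from 8 to 16. Leaving out 1 library or 1 mouse gave 1 to 4 members called lower. Over these fits the median ranged from -0.14 to -0.05 in complex I, -0.06 to -0.024 in II, -0.09 to -0.019 in III, -0.11 to -0.015 in IV and -0.15 to -0.07 in V. For the 28 named members tested, 458 alternative values kept direction and side of the threshold, 11 passed where the main value did not, 20 no longer passed and 14 changed sign, all of the last near 0. The sign changes were Cox8a with library totals alone (0.0035) and in fits without libraries (0.0043, 0.0094, 0.0032 and 0.0017), Cox7a2l (-0.024 and -0.015), Atp5j (-0.023 and -0.022), Cox6b1 (-0.018 and -0.022) and Cox7b (-0.05, -0.0018 and -0.027), all in fits without 1 library or mouse. Over those fits Cox8a reached -0.048, Atp5j 0.07, Cox6b1 0.11, Cox7a2l 0.09 and Cox7b 0.17 at the other end. Fits without libraries had fewer samples and no block. The cause of the other changes was not tested. Depth limits the scarce isoforms: Cox4i2 rests on 12 to 47 counts a library, and 7 members were not tested.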
